A study of Mus musculus with 6 samples.

Results

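The Hox gene clusters were examined in the ATAC-seq peak list of untreated mouse embryonic stem cells (mESCs). Members were the protein-coding RefSeq genes of GRCm38 whose symbol is Hox followed by a, b, c or d and a number. The rule gave 39 of 21774 protein-coding genes, of which 11 lay in the Hoxa cluster, 10 in Hoxb, 9 in Hoxc and 9 in Hoxd. ATAC-seq marks open chromatin by letting the transposase Tn5 insert adapters into DNA that is not protected by nucleosomes. The untreated samples were 2 replicates of V6.5, an mESC line, with 50000 cells per library according to the labels. A single list of 41014 peaks represents these libraries. It holds nothing per library, so neither replicate spread nor sequencing depth can be given. All values here describe that single list, and no test between conditions was possible. Each peak carries a score between 540 and 953 (median 696), which was read as the scaled score of the IDR procedure, in which a higher number stands for better agreement between replicates. It is not a measure of signal height.

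The series also holds ATAC-seq libraries of cells with a ZBTB21 degron, a tag for rapid degradation of this zinc finger protein, at 0 h and 6 h of treatment (2 replicates each). These were not analysed here. The labels describe growth of V6.5 cells on irradiated fibroblast feeders with serum and leukaemia inhibitory factor, whereas the methods of the study list the inhibitors CHIR99021 and PD0325901 in the medium and mention no feeders. Which medium was used for these libraries could not be settled. The treatment text, shared by all the labels, speaks of degron cells and doxycycline. Whether the untreated libraries came from cells with the degron tag could therefore not be settled either.

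Hox genes encode homeodomain transcription factors that specify position along the head-to-tail axis of the embryo. Within a cluster they lie in the order in which they are used, with group 1 at the 3′ end, active early and towards the head, and group 13 at the 5′ end, active late and towards the tail. In mESCs the clusters are well known as targets of the Polycomb repressive complexes, and retinoic acid turns on the 3′ genes first.

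A listed peak lay within 1 kb of a transcription start site (TSS) of 6 of the 39 Hox genes (15.4%). The Wilson 95% interval was 7.25% to 29.7%, which covers counting error only and treats these neighbouring genes as independent. Over all protein-coding genes the share was 29.9%. Among the 6 Hox genes were Hoxb3, Hoxb4, Hoxb6, Hoxb7 and Hoxd11. Hoxb therefore held 4 of its 10 genes with a peak, Hoxd 1 of 9 and Hoxc 0 of 9. By position along the clusters, 3 of 12 genes of groups 1 to 4 had a peak, 2 of 11 of groups 5 to 8 and 1 of 16 of groups 9 to 13. No group had a peak at more than 1 of its genes.

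Hoxb4, a regulator of blood stem cells and of the hindbrain boundary, had its only TSS inside a peak at chr11:96317925-96319148 (mm10) with a score of 596 and a width of 1224 bp. The same peak lay 760 bp from the start of Mir10a. Hoxd11, which acts with its group 11 paralogues in forearm and kidney, had its curated TSS inside a peak at chr2:74681521-74682555, with a score of 646 and a width of 1035 bp. In both genes the peak ran over the TSS into the first coding exon.

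Narrower peaks lay at 3 other genes. Hoxb7, a trunk gene, had a predicted TSS inside a peak of 598 bp (chr11:96285265-96285862, score 706), and its curated TSS lay 784 bp away. Hoxb3, a hindbrain gene with several annotated start sites, had peaks 128 bp and 802 bp from predicted TSSs, with scores of 573 and 619 and widths of 745 and 668 bp. Hoxb6, expressed in trunk mesoderm, had a peak of 375 bp (score 693) 719 bp from a predicted TSS. Hoxb3 and Hoxb6 were thus reached only through predicted transcripts. With curated transcripts alone 4 Hox genes had a peak (10.3%), against 28.5% of 21000 protein-coding genes. The gene just inside the limit of 1 kb was Hoxb6, and those just outside it were Hoxc6 (1379 bp), Hoxb1 (1525 bp), Hoxd10 (1718 bp) and Hoxd12 (1778 bp).

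The promoters of Hoxb4 and Hoxd11 are shown because they are the 2 promoters with a peak that the RefSeq promoter table (GRCm38) gives, which has entries for 22 of the 39 genes. Each run is the 250 bases before the curated TSS on the plus strand, and all of it lies inside the listed peak. Capitals in the Hoxd11 promoter mark a match to TGATTNAT, a motif that HOX and PBX proteins bind together, on the minus strand.
Hoxb4 promoter, chr11:96318017-96318266: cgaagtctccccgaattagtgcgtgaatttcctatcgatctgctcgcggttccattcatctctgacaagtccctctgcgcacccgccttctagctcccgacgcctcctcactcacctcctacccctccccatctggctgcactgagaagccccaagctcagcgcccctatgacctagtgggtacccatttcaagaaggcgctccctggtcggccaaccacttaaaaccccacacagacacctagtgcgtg
Hoxd11 promoter, chr2:74682073-74682322: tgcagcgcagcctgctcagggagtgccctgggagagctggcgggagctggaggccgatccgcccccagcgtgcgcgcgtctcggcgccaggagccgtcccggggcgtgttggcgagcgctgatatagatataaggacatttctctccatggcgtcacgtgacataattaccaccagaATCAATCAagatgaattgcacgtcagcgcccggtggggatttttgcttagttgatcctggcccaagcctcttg
The HOX and PBX motif was searched on both strands and was found in 2.82% of the 32851 promoters in the table. The Hoxb4 promoter held no match to it, to the core of the CTCF motif (CC, any 3 bases, then AGGNGGC, in 2.93% of promoters) or to the octamer ATGCAAAT that OCT4 binds (1.60% of promoters). A match is a description of the letters and does not show binding.

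The 33 Hox genes without a peak within 1 kb differed in how far the nearest listed peak lay. Over all 39 genes the median distance from the nearest TSS to the nearest peak was 5.58 kb (25th percentile 2.08 kb, 75th percentile 14.3 kb). Over all protein-coding genes the median was 8.70 kb, with percentiles of 0 and 36.8 kb. Within 5 kb a peak lay at 18 of 39 Hox genes (46.2%) against 41.0% of all protein-coding genes, and within 10 kb at 25 (64.1%) against 52.5%. The Hox genes therefore had a lower share than all genes at 1 kb and a higher share at 5 and 10 kb. These differences in share were not tested. Neighbouring Hox genes can have the same nearest peak, as Hoxc4, Hoxc5 and Hoxc6 did, so they are not independent counts.

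**Figure D1:**
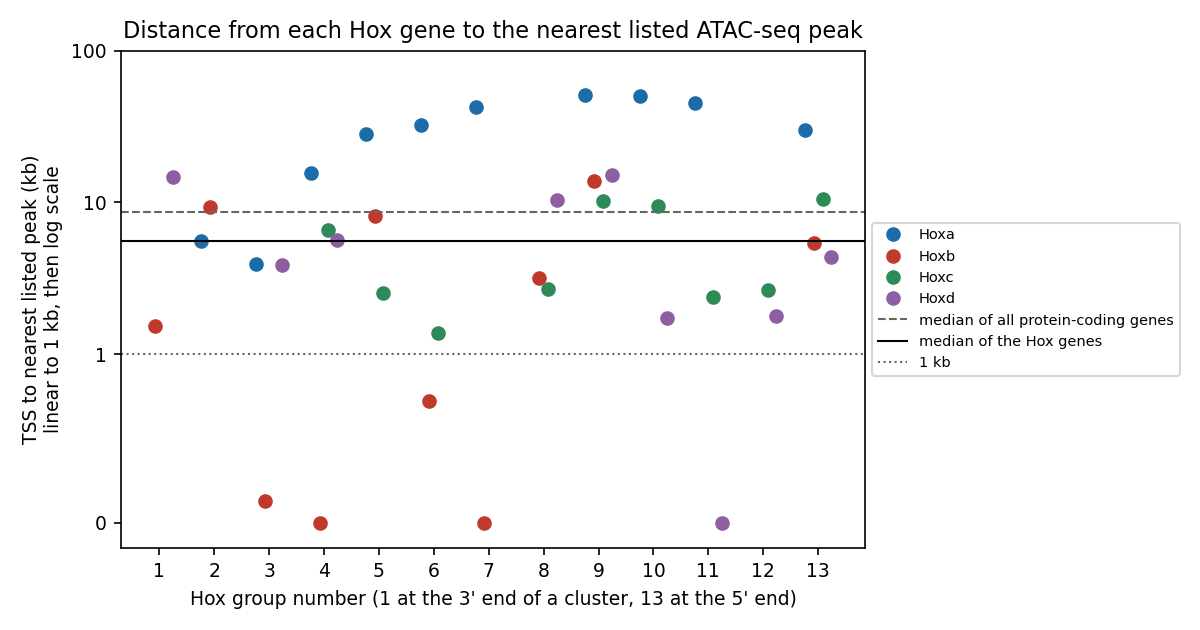
Distance in kb from the nearest TSS of 38 of the 39 Hox genes to the nearest listed peak (y axis, linear up to 1 kb and logarithmic above), by group number (x axis) and cluster (colour). The solid line is the Hox median (5.58 kb), the dashed line the median of all protein-coding genes (8.70 kb) and the dotted line 1 kb. Hoxa genes of groups 5 to 13 lie highest, at 28.4 to 51.2 kb, and 5 of the genes drawn lie below 1 kb.

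The distances split by cluster. The median was 2.35 kb in Hoxb, 2.68 kb in Hoxc, 4.36 kb in Hoxd and 30.1 kb in Hoxa. Beyond 25 kb lay 7 Hoxa genes and 0 genes of the other clusters, against 31.2% of all protein-coding genes. These 7 were Hoxa5, required for lung and trachea, at 28.4 kb, Hoxa6 at 32.5 kb, Hoxa7 at 42.4 kb, Hoxa9, a gene of blood progenitors and leukaemia, at 51.2 kb, Hoxa10, a gene of the uterus, at 50.1 kb, Hoxa11, its neighbour in uterus and forearm, at 45.2 kb, and Hoxa13, which shapes digits and the urogenital tract, at 30.1 kb. Other Hoxa genes were closer, with Hoxa2 (neural crest of the second arch) at 5.58 kb, Hoxa3 (thymus and parathyroid) at 3.94 kb and Hoxa4 at 15.5 kb.

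In Hoxb, genes without a peak within 1 kb lay between 1.53 kb (Hoxb1, a marker of hindbrain rhombomere 4) and 13.9 kb (Hoxb9). Hoxb8, known from myeloid cells and microglia, lay at 3.18 kb, and Hoxb13, a gene of prostate and tail, at 5.43 kb. Hoxb2 and Hoxb5 lay at 9.40 and 8.13 kb. In Hoxc all 9 genes lay between 1.38 kb (Hoxc6, a gene of limb-level motor neurons) and 10.5 kb (Hoxc13, which controls hair and nail keratins). Hoxc5, Hoxc8, Hoxc11 and Hoxc12 were each within 5 kb (2.51, 2.68, 2.38 and 2.64 kb), and Hoxc4, Hoxc9 and Hoxc10 lay at 6.60, 10.3 and 9.43 kb. In Hoxd the genes without a peak within 1 kb lay between 1.72 kb (Hoxd10, a limb and motor neuron gene) and 15.2 kb (Hoxd9), with Hoxd12 at 1.78 kb, Hoxd3 at 3.86 kb, Hoxd13, a digit gene, at 4.36 kb, Hoxd4 at 5.63 kb, Hoxd8 at 10.4 kb and Hoxd1 at 14.7 kb.

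Across the spans of the clusters, from the outer end of the first Hox gene to that of the last, 18 peaks were listed in 492 kb. This is 36.6 peaks per Mb and 2.65% of the sequence, against 15.0 per Mb and 0.886% over chromosomes 1 to 19, X and Y. Hoxb (chr11:96194316-96368254, 174 kb) held 8 peaks, or 46.0 per Mb. Hoxc (chr15:102921131-103036856, 116 kb) held 5 peaks, or 43.2 per Mb. Hoxd (chr2:74668225-74765142, 96.9 kb) held 3 peaks, or 31.0 per Mb. Hoxa (106 kb) held 2 peaks, or 18.95 per Mb. For scale, 48.6% of 27247 genome tiles of 100 kb held 0 peaks, the 75th percentile was 2 peaks and the 90th percentile 5. Hoxc was thus the cluster with no peak at a TSS although its peak density was close to that of Hoxb.

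**Figure D2:**
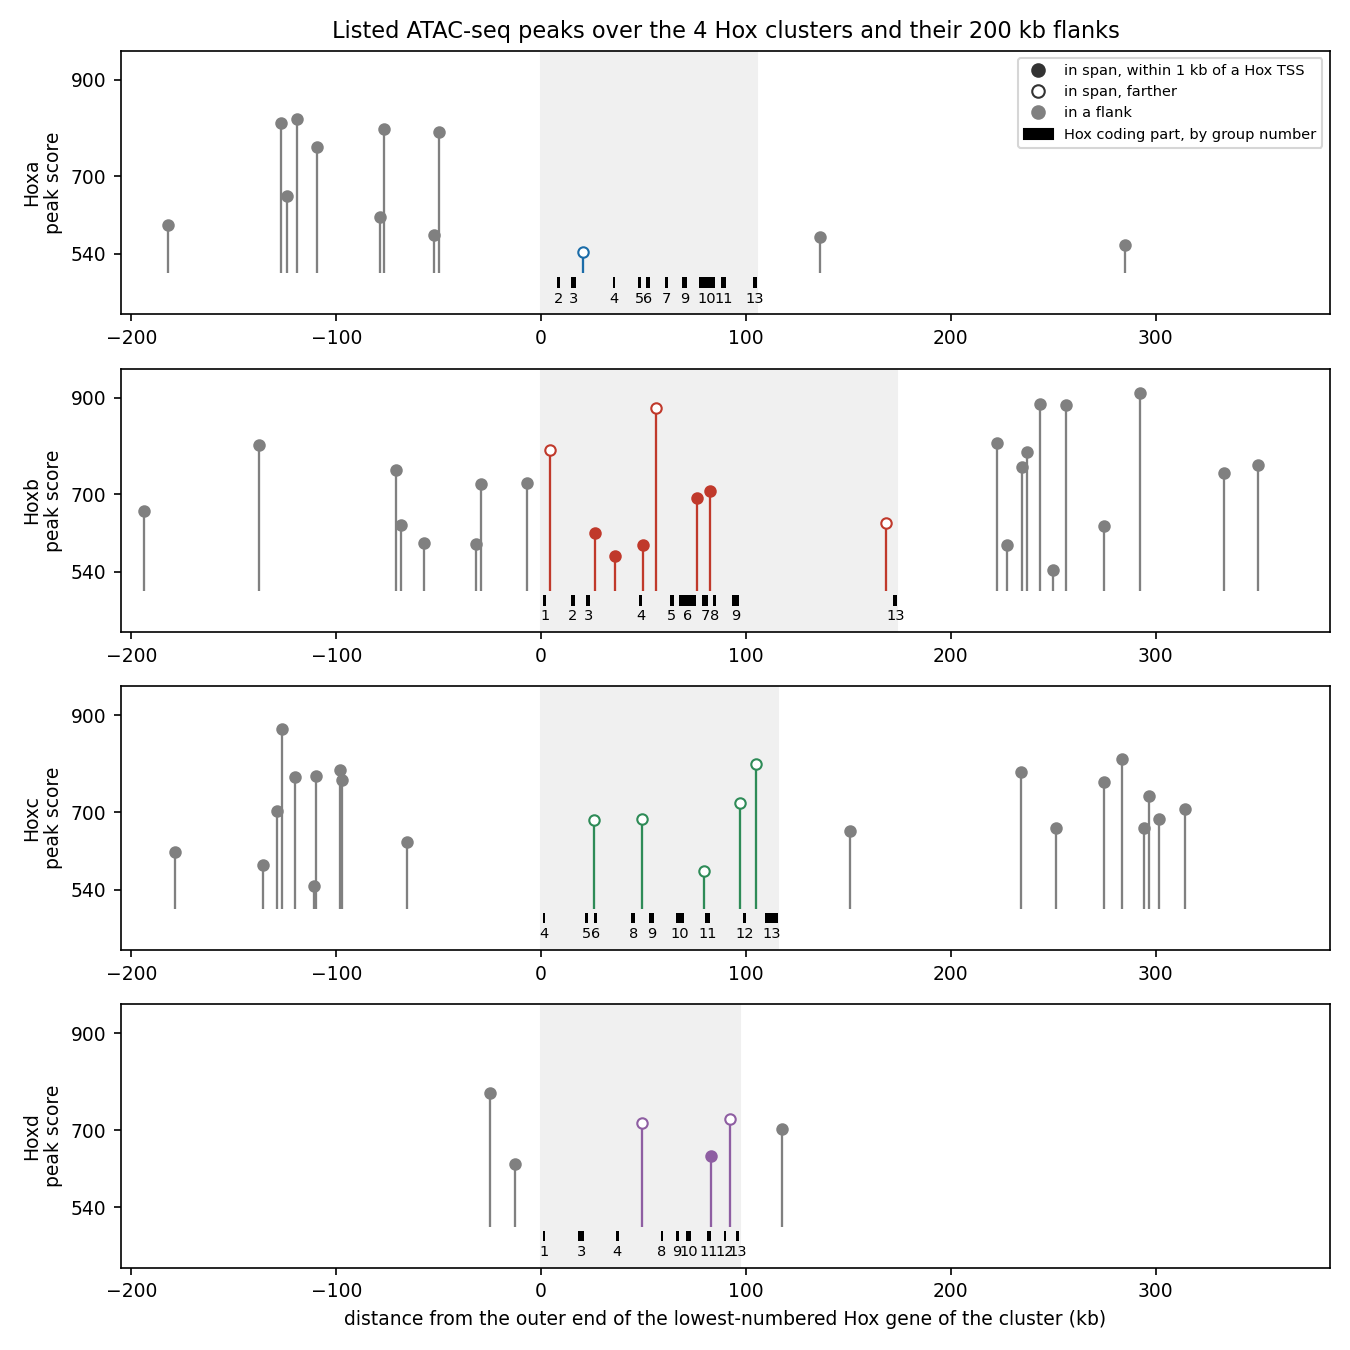
Listed peaks (stems, height is the score) over each cluster span (grey area) and 200 kb on either side, by distance in kb from the outer end of the lowest-numbered Hox gene. Black blocks are the coding parts of the Hox genes with their group numbers. Filled coloured points are span peaks within 1 kb of a Hox TSS (6 drawn), open points the 11 others, and grey points the 52 flank peaks. Of the 18 span peaks 17 are drawn. Hoxa holds no peak from group 4 to group 13.

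Of the 18 span peaks, 7 lay within 1 kb of a Hox TSS, 2 only within 1 kb of a noncoding TSS and 9 near no TSS. No protein-coding gene other than the Hox genes has a TSS in the spans (0 genes). The peaks with the highest scores lay farther than 1 kb from the Hox TSSs. The top one, with a score of 879 (97.4th percentile of the list) and a width of 754 bp, lay at chr11:96311641-96312394 in an intron of Hoxb3, between the coding parts of Hoxb4 and Hoxb5. The next were a peak of 659 bp between Hoxc12 and Hoxc13 (chr15:102931590-102932248, score 800) and one of 559 bp between Hoxb1 and Hoxb2 (chr11:96363663-96364221, score 791). In Hoxd the peak with the highest score (723) lay between Hoxd12 and Hoxd13 (chr2:74672585-74673235, 651 bp). In the order named, these peaks lay 4540, 4578, 1525 and 1778 bp from the nearest Hox TSS. The contrast with the peaks at Hox TSSs therefore depends in part on the limit of 1 kb. Hoxb, Hoxc and Hoxd each had a peak in the interval next to their group 13 gene.

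The central 300 bases are shown for these 4 peaks, because they have the highest scores of the spans, and for the single span peak with a CTCF core. All are on the plus strand of mm10, and capitals mark the CTCF core.
Hoxb4 to Hoxb5, chr11:96311867-96312166: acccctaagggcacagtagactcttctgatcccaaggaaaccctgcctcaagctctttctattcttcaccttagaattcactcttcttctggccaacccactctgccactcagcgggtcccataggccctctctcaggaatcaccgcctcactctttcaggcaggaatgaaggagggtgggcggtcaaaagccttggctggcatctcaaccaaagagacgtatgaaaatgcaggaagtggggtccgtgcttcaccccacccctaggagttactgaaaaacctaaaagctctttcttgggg
Hoxc12 to Hoxc13, chr15:102931769-102932068: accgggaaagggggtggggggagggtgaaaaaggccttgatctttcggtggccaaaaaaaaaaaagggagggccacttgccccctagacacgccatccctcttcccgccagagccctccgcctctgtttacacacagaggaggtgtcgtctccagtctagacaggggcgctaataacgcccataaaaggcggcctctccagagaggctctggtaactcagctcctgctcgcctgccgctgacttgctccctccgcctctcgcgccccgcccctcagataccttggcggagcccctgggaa
Hoxb1 to Hoxb2, chr11:96363792-96364091: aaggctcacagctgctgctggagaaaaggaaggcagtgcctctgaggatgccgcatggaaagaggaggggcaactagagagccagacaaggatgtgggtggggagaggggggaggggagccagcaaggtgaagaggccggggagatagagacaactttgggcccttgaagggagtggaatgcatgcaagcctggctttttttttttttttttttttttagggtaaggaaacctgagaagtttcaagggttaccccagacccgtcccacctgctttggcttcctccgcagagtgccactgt
Hoxd12 to Hoxd13, chr2:74672760-74673059: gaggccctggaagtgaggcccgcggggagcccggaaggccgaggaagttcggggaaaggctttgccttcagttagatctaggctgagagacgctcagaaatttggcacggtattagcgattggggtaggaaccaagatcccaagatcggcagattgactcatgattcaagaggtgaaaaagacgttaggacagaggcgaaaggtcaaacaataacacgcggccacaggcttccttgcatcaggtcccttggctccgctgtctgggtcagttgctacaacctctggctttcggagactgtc
Hoxd4 to Hoxd8, chr2:74715951-74716250: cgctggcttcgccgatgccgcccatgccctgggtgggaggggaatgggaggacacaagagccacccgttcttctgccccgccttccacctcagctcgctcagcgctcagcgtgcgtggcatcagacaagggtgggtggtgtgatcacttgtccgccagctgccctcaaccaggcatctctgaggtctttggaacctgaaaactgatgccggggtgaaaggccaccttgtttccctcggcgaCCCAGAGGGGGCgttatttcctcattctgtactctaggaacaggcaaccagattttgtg
The peak with the CTCF core (chr2:74715852-74716350, score 715, 499 bp) lay in an intron of Hoxd3 and at the TSS of the noncoding RNA Hoxd3os1.

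In the central 300 bases, 1 of 18 span peaks held the CTCF core (5.56%), against 7.31% of all listed peaks. The HOX and PBX motif was found in 1 of 18 (5.56%), against 2.21%, and that match lay in the peak over the 5′ untranslated exon of Hoxa3. The octamer was found in 0 of 18, against 2.85%. With 18 peaks, 1 match is a share of 5.56%, and the differences from the list were not tested. The median GC content of the span peaks was 56.7% and their median ratio of observed to expected CpG 0.437, against 52.7% and 0.248 for all listed peaks. The clusters themselves are rich in both, with a GC content of 48.9% to 50.01% and a CpG ratio of 0.349 to 0.477, against 41.7% and 0.190 for the chromosomes as a whole. Their repeat-masked share was 13.4% to 24.6%, against 36.4%.

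The promoters of the Hox genes (250 bases before to 50 after the 5′ end of the gene) had a median CpG ratio of 0.617 and a GC content of 55.0%. Over all protein-coding genes the medians were 0.474 and 53.7%. The protein-coding genes with a peak within 1 kb had a median CpG ratio of 0.646, above the 0.362 of those without. Among the Hox genes the order was the opposite, with 0.337 for the 6 with a peak and 0.657 for the 33 without. With 6 genes in a group this is a description, and the 5′ end is not the TSS at the peak for every one of them. It lay inside a peak only at Hoxb4 and Hoxb7. From the nearest peak it lay 719 bp away at Hoxb6, 1963 bp at Hoxd11 and 4540 bp at Hoxb3. The ratio of the genes with a peak therefore describes in part sequence outside the peaks.

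The span peaks were wide and of moderate score. Their median width was 663.5 bp, against 547 bp for the list, and 15 of 18 were above that value. Their median score was 684, against 696, and 7 of 18 were above that value. The 7 peaks within 1 kb of a Hox TSS had a median score of 619 (range 573 to 706) and a median width of 745 bp. The 6598 listed peaks within 1 kb of any protein-coding TSS had a median score of 735 and a similar width of 737 bp. Only the peak at Hoxb7 (score 706) exceeded the median of the list among those 7. The 11 other span peaks had a median score of 715 and a width of 651 bp, against 690 and 521 bp for the 34402 peaks away from protein-coding TSSs.

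**Figure D3:**
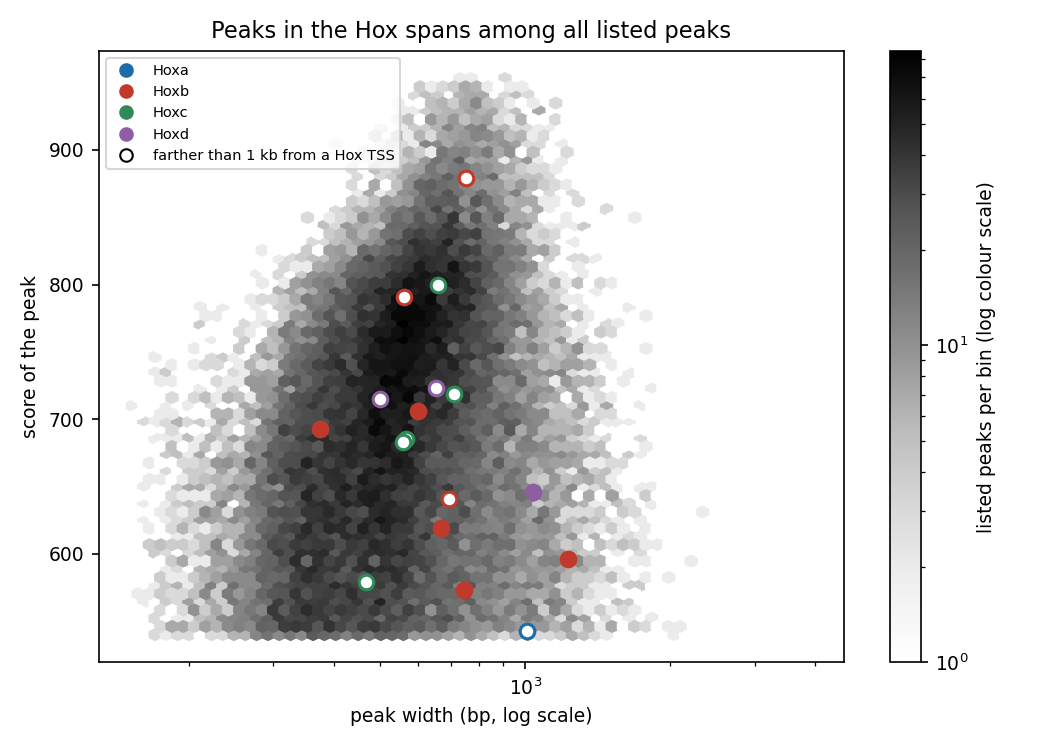
Width in bp (x axis, log scale) and score (y axis) of 17 of the 18 peaks in the Hox spans, over the 41014 listed peaks binned in grey (darker bins hold more peaks, log colour scale). Filled points lie within 1 kb of a Hox TSS and open points farther away. The 3 Hox peaks drawn that are wider than 1000 bp have scores of 543 to 646, and the 4 highest Hox scores belong to open points.

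Peaks wider than 1000 bp made up 4 of 18 span peaks (22.2%), against 6.17% of the list. Among these were the peaks over Hoxb4 and Hoxd11 described above and a peak of 1006 bp over the 5′ untranslated exon and an intron of Hoxa3 (chr6:52175172-52176177), which had the lowest score of the 18 (543). Their scores were at most 646, a limit that these 4 peaks set and that was not tested. Peaks of the list that were both wider than 1000 bp and had a score of at most 646 made up 2.57%, and among the peaks within 1 kb of a protein-coding TSS 8.32%. Peaks near a TSS were more frequent in the spans (7 of 18) than in the list (6598 of 41014). They were also wider in general, with a median of 737 bp against 547 bp for the list. The share of them wider than 1000 bp at any score was not counted. The central 300 bases had a GC content of 69.3% at Hoxa3, 57.3% at Hoxb4 and 75.3% at Hoxd11.

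In each cluster the longest stretch with no listed peak was measured. Such stretches are not particular to the Hox clusters, as 48.6% of 27247 genome tiles of 100 kb held 0 peaks. Their lengths over the genome were not measured. In Hoxa the longest stretch began after the Hoxa3 peak and reached the end of the span. It was 84.7 kb, or 80.3% of the span, and held the coding parts of 8 genes from Hoxa4 to Hoxa13. Beyond the span it went on to the next listed peak, which lies between Hoxa13 and Evx1, for 115 kb in all. In Hoxb the stretch was 84.8 kb (48.8% of the span), from the Hoxb7 peak past the coding parts of Hoxb8 and Hoxb9 to a peak of score 641 and 694 bp (chr11:96199742-96200435) downstream of Hoxb13. In Hoxd it was 48.8 kb (50.3%) and held the coding parts of Hoxd1, Hoxd3 and Hoxd4. In Hoxc the longest stretch was 29.9 kb (25.9%) and held the coding parts of Hoxc9 and Hoxc10, and the 5 peaks were spread over the whole span except its Hoxc4 end. Of the 4 Hoxc peaks not yet described, 3 lay between Hoxc8 and Hoxc9 (score 685, 565 bp), between Hoxc10 and Hoxc11 (score 579, 467 bp) and between Hoxc11 and Hoxc12 (score 719, 711 bp), and 1 lay over the last exon of Hoxc6 (score 683, 556 bp).

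The flanks of 200 kb held 52 peaks, or 32.5 per Mb, with a median score of 722.5 and a median width of 532 bp. They differed between clusters and sides. Hoxa had 9 peaks on the group 1 side and 2 on the group 13 side, Hoxb 8 and 11, Hoxc 10 and 9, and Hoxd 2 and 1. In Hoxd the span had more peaks per Mb than either flank, whereas in Hoxa the flank on the group 1 side (45.0 per Mb) had more than the span (18.95 per Mb). Of the 52 flank peaks, 9 lay within 1 kb of a protein-coding TSS, 5 only of a noncoding one and 38 of neither. Among 16 protein-coding genes in the flanks 7 had a peak, beside a share of 29.9% over all protein-coding genes. The 7 were Atp5g1, Calcoco2, Snf8 and Ttll6 beside Hoxb and Calcoco1, Cbx5 and Smug1 beside Hoxc. Their scores were 910, 884, 745, 887, 707, 618 and 873 in that order. Thus 6 of the 7 genes had a peak above the median score of the list. Of the 6598 listed peaks within 1 kb of any protein-coding TSS, 4024 were above that median.

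**Figure D4:**
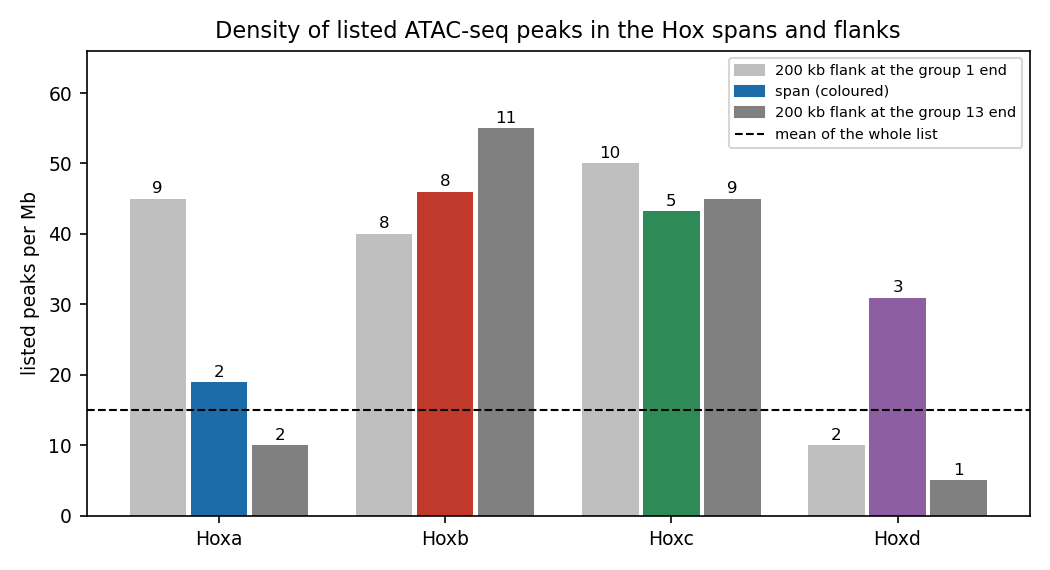
Listed peaks per Mb (bars, from 0) in each cluster span (coloured) and in the 200 kb flank at its group 1 end (light grey) and group 13 end (dark grey), with the number of peaks above each bar. The dashed line is the mean of the whole list (15.0 per Mb). Both Hoxd flanks and the group 13 flank of Hoxa lie below it, and all 4 spans lie above it.

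Noncoding genes were counted in the same way. Of the 31 noncoding genes that start in the spans, all of them lncRNA or miRNA genes, 5 had a peak within 1 kb, while the share over all 13866 lncRNA and miRNA genes was 15.2%. By cluster these were 3 of 12 in Hoxa (among them 5730596B20Rik and LOC115490409), 1 of 8 in Hoxb (Mir10a), 0 of 6 in Hoxc and 1 of 5 in Hoxd (Hoxd3os1). Hotair, a noncoding RNA of Hoxc, lay 7.77 kb from the nearest peak, and Hottip, at the group 13 end of Hoxa, 28.2 kb. The homeobox genes Evx1 and Evx2, next to Hoxa13 and Hoxd13, lay 21.5 and 11.1 kb away. Halr1, a noncoding RNA on the group 1 side of Hoxa, had its TSS in a peak of score 579 and 309 bp. Of a list of 33 genes in or next to the clusters 31 were found in the annotation and 10 had a peak within 1 kb. That list mixes protein-coding genes with lncRNA and miRNA genes, for which the shares over all genes were 29.9% and 15.2%.

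The clusters hold the microRNA families miR-10 and miR-196, which repress Hox messenger RNAs, and miR-615. The mature sequences from RefSeq (GRCm38) are shown because members of a family share the seed, bases 2 to 8 in capitals, while their genes differed in the distance to a peak.
miR-10a-5p (Hoxb): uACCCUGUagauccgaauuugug
miR-10b-5p (Hoxd): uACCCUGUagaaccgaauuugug
miR-196a-5p (Hoxb and Hoxc): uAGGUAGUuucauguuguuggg
miR-196b-5p (Hoxa): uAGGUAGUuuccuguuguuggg
Mir10a lay 0.760 kb from the Hoxb4 peak and Mir10b 9.72 kb from the nearest peak. The 3 genes of the miR-196 family lay at 13.9 kb (Mir196a-2), 20.1 kb (Mir196a-1) and 54.0 kb (Mir196b), and Mir615 at 3.41 kb. Of the 6 genes 1 was therefore within 1 kb of a peak, and over all 1228 miRNA genes the share was 11.2%.

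The loops of the study that reach the Hox clusters were taken from its lists of 500 ZBTB21-responsive and 500 less-responsive loops, in anchors of 25 kb. All these loops are long, and responsive ones were ranked by ZBTB21 and cohesin signal at the ATAC-seq peaks inside them, so the number of peaks in a loop is not independent of its class. The study defined less-responsive loops as holding no ZBTB21 peaks and no down-regulated cohesin peaks, and their median was 2 listed peaks per loop. Of the responsive loops 3 overlapped a Hox span, and of the less-responsive loops 0. The share of all protein-coding genes inside loops of either class was not counted, so these counts have no background. In Hoxa, 2 loops of 1050 and 625 kb shared the anchor chr6:52200001-52225000, which holds the coding parts of Hoxa5, Hoxa6 and Hoxa7 and part of Hoxa9. This anchor lay inside the long Hoxa stretch and held 0 listed peaks, while the other anchors held 1 each. The 2 loops held 39 and 20 peaks, among them the 2 of the Hoxa span. In Hoxc, 1 loop of 625 kb (chr15:102725001-102750000 to chr15:103325001-103350000) enclosed the whole span with its 9 genes and held 33 peaks, with 3 and 4 in its anchors and 5 in the span. The median over all responsive loops was 24 peaks. Hoxb and Hoxd were overlapped by 0 loops of either class.

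Genes that act with or on the Hox clusters were counted by the same rule, beside the 29.9% of all protein-coding genes. Of 10 genes of the TALE homeodomain class, some of whose products bind DNA together with HOX proteins, 6 had a peak within 1 kb. These were Pbx2, Pbx3, Pbx4, Meis1, Meis2 and Tgif1, with scores from 559 at Pbx2 to 886 at Pbx4. Of 15 Polycomb and trithorax genes, whose products silence or maintain Hox expression, 7 had a peak (Eed, Mtf2, Ring1, Cbx2, Cbx7, Kmt2a and Ash1l). Of these 7 peaks, 5 were wider than 1000 bp, among them those at Eed (score 576, 1265 bp) and Ash1l (546, 1732 bp). Over the whole list 6.17% of peaks were wider than 1000 bp. Peaks within 1 kb of any protein-coding TSS had a median width of 737 bp, against 547 bp for the list. The share of these promoter peaks wider than 1000 bp was not counted. Of 10 retinoic acid receptors and enzymes 3 had a peak, Rara (score 856), Rarg (726) and Aldh1a2 (628), an enzyme that makes retinoic acid. Of 6 Cdx and ParaHox genes, relatives and upstream regulators of the Hox genes, 1 had a peak, Pdx1 (score 635). Cdx2 lay 1.97 kb from the nearest peak.

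Marker genes were counted in the same list to check the labelled cell type. The share over all protein-coding genes, 29.9%, is again the background, and the counts do not separate the cell types from it. Of 10 mESC markers 4 had a peak within 1 kb, Pou5f1 (score 830), Nanog (805), Zfp42 (892) and Dppa5a (771), and Esrrb, Tfcp2l1 and Lin28a had one 1.05 to 1.57 kb away. Sox2, Tdgf1 and Klf4 lay farther from a peak, up to 31.1 kb. Of 10 fibroblast markers, the cells of the feeder layer named in the labels, 3 had a peak (Thy1, Pdgfra and Pdgfrb), whereas Col1a2, Col3a1, Twist2, Prrx1, Postn and Lum lay 39.0 to 252 kb from the nearest one and Col1a1 lay 6.07 kb from it. Of 5 neural markers 1 had a peak (Pax6). Fibroblasts express Hox genes, and how much DNA of feeder cells the libraries held was not tested.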

How the data were processed

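ATAC-seq was performed in untreated V6.5 mESCs (2 replicates). The authors deposited 1 peak list for this condition, with mm10 coordinates and a score for each peak. The steps of ATAC-seq peak calling, including any shift for Tn5 or pooling of replicates, are not given in the sources used here. For ChIP-seq the study describes an IDR threshold of 0.05. The submitters' processing notes name cutadapt 2.6, Bowtie2 2.3.5.1 and MACS2 2.1.1.

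Genes, transcripts and sequences came from RefSeq on GRCm38, the assembly of mm10. A peak counted when it overlapped by at least 1 bp, or lay within 1 kb of the TSS of any transcript. Spans ran between the outer ends of the Hox genes, with flanks of 200 kb. Motifs and base content were counted on both strands in 300 bases around each peak centre. Loop coordinates were those of the study, and ZBTB21 ChIP-seq peaks were not used here. One Hox gene is counted in the totals and not reported here by name or drawn. The other members were each accounted for, and other genes were named from lists of neighbours, cofactors, regulators and markers. Members and lists were chosen with earlier results of these data known. With 1 list of 1 condition no test was made. The alternatives were other TSS distances, curated transcripts, gene 5′ ends, peak centres, merging of peaks within 500 bp, other flanks and a higher score. Counting was tested on simulated data (0 mismatches in 50 sets). Python 3.11.15 was used with numpy 2.4.6 and scipy 1.17.1.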

Additional observations from a re-analysis of the deposited data

How the results depend on the processing

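No paired analysis was possible because a single list stands for both untreated replicates, and for the same reason no replicate could be left out. Over 26 results and 96 alternatives, 64 values moved by no more than 1.5 times (counts) or stayed within the interval of the main value, and 32 moved by more. Direction was not scored, since no result is a signed difference. The number of Hox genes with a peak was 11 at 2.5 kb (28.2%, against 34.9% of all genes), where the Hox share stayed lower. At 5 kb it was 18 (46.2%, against 41.0%), where the order of the shares turned. With only the 20408 peaks that score higher than 696, 1 Hox gene (Hoxb7) had a peak (2.56%, against 19.4% of all genes). The spans then held 7 peaks, with 0 in Hoxa, 3 in Hoxb and 2 in Hoxc, and the density was 14.2 per Mb (against 7.49 for the list). The flanks held 30 peaks and the median distance of the Hox genes was 18.1 kb. The distance over all genes was not computed with this filter. Dropping peaks cannot shorten the distance of any gene. Flanks of 100 and 500 kb held 25 and 147 peaks. The HOX and PBX motif was found in 2 peaks when whole peaks were searched. Depth per library is unknown, so a gene without a listed peak cannot be called inaccessible.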
